A study of Mus musculus with 16 samples.

Results

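The effectors of the Hippo pathway and the CCN family were followed in neural stem cells (NSC) in which the long noncoding RNA RUS had been knocked down. The 10 genes are the 6 CCN genes (Ccn1 to Ccn6), Yap1, Wwtr1, and the YAP/TAZ target genes Ankrd1 and Amotl2, of 55468 lines that name a gene in the table of day 5 and 55471 in that of day 7. They were picked on a measured value, the low Ccn5 level with knockdown on day 7. NSC came from cortices of C57BL/6 mouse embryos at E15 to E16 and grew as a monolayer in medium with bFGF. Lentiviral vectors with puromycin resistance brought in either a scrambled control (shRNA-CON) or the RUS-directed hairpin (shRNA-RUS). On day 5 after seeding, the medium was changed to Neurobasal with B27 to start differentiation. PolyA RNA was sequenced on day 5 and day 7, with 4 libraries for each shRNA and day, 16 in all. All 4 groups thus carry a lentiviral vector, the knockdown rests on 1 shRNA sequence, and the cells came from pooled embryos of both sexes. The labels number the libraries 1 to 4 and do not say whether they came from separate cultures, so p-values measure the spread between these libraries, which may be technical.

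The Hippo pathway is a kinase cascade that restrains organ growth. Its kinases phosphorylate the transcriptional coactivators YAP (gene Yap1) and TAZ (gene Wwtr1) and keep them out of the nucleus; without phosphorylation, both enter the nucleus and bind TEAD factors at target genes. In the developing cortex, YAP and TAZ are present in radial glia and are low in neurons. Ccn1 (also Cyr61), Ccn2 (also Ctgf), Ankrd1 and Amotl2 are the target genes most often read as YAP/TAZ activity, and the Amotl2 protein itself binds YAP and restrains it. CCN proteins are secreted into the matrix, where they bind integrins, LRP receptors and growth factors. Ccn5 (also Wisp2) lacks the C-terminal cysteine knot domain that the other members of the family have.

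TEAD factors recognise the letters GGAATG, which were searched on both strands in the RefSeq promoter windows of build GRCm38.p6, each 250 bases before to 50 bases after an annotated transcript start. Windows were found for 6 of the 10 genes (Ccn1, Ccn6, Yap1, Wwtr1, Ankrd1 and Amotl2) and not for Ccn2, Ccn3, Ccn4 and Ccn5. The letters stood in a window of 5 of these 6 genes, all but Ccn6, and in 16.6% of all 27025 genes with a window (14.7% of 32851 windows). The 250 bases before the start are shown for the 3 genes used as readouts of TEAD binding, with each match in capitals (CATTCC is the same word on the other strand). The Ccn1 sequence is the minus strand of chr3:145649986-145650235, that of Ankrd1 the minus strand of chr19:36119845-36120094, and that of Amotl2 the plus strand of chr9:102717554-102717803. The Amotl2 window lies inside the span of the gene (chr9:102717091-102733418), so it precedes an internal start and not the first base of the gene. The same holds for the window of Ccn6.
Ccn1: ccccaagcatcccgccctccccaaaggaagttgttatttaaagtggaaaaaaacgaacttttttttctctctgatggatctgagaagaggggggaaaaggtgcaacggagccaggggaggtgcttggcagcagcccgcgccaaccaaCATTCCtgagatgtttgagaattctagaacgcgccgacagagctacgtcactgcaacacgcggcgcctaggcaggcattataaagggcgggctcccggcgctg
Ankrd1: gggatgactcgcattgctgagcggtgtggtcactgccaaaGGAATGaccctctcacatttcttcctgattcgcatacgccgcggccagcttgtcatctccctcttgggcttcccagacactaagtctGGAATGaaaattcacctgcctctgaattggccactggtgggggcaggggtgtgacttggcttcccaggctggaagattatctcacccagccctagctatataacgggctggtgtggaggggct
Amotl2: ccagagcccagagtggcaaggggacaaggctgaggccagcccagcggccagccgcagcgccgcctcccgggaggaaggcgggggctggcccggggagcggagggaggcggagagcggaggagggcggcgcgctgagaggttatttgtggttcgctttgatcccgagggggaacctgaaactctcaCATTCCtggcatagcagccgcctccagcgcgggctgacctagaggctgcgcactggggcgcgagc
The match began 103 bases before the start in Ccn1 and 65 bases before it in Amotl2, and Ankrd1 had a pair of matches, 210 and 123 bases before the start. In Yap1 it began 141 bases before the start, and in Wwtr1, whose 2 windows overlap, 170 or 136 bases before it. These matches describe the letters only. As the values below show, the 3 genes with printed sequences had different levels: Ccn1 was among the most abundant of the members, Amotl2 was intermediate, and Ankrd1 was listed at or close to 0.

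Levels are in TPM, a measure of abundance corrected for transcript length that sums to 1000000 in each library, so that they can be compared between genes; the depth in reads is unknown. Between 25615 and 29126 genes had a TPM above 0. RUS, listed as Gm20754, had 0.24, 0.11, 0.18 and 0.16 TPM with shRNA-CON and 0.05, 0, 0.12 and 0.32 TPM with shRNA-RUS on day 5 (71.0% of the control mean, exact permutation test, two-sided, p = 0.543). On day 7 it had 0.70, 0.72, 0.26 and 0.54 TPM with shRNA-CON and 0.54, 0.38, 0 and 0.04 TPM with shRNA-RUS (43.2%, exact p = 0.143). Replicate 4 of shRNA-RUS on day 5 thus had more Gm20754 than each control library of that day, and day 5 results are also given without it. The authors' mean of normalized counts for Gm20754 over the 8 libraries of a day was 3.86 on day 5 and 8.57 on day 7, so this check rests on few reads. For tests, TPM were divided by a factor per library, which lay between 1.02 and 1.11 for shRNA-CON and between 0.920 and 1.01 for shRNA-RUS on day 5, and between 0.991 and 1.01 on day 7. All 8 markers of NSC and radial glia had a group mean of at least 1 TPM in each of the 4 groups, and their summed level was 12753 to 14021 TPM with shRNA-CON and 16499 to 17981 TPM with shRNA-RUS on day 5. On day 7 these sums were 7330 to 7764 TPM and 7753 to 8486 TPM. Most of this was Vim (5121 ± 208 and 5781 ± 304 TPM). By limma, 2 of the 8 markers were higher and 4 lower with shRNA-RUS, beside 23.4% and 25.8% of all genes. The 2 that were higher were Pax6 (log2 fold change 0.20) and Vim (0.17). The 4 that were lower were Nes (log2 fold change -1.19), Prom1 (34.9 against 69.9 TPM), Hes5 (-0.83) and Slc1a3 (-0.15).

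In control cells of day 5, Ccn1 was the most abundant CCN gene with 324 ± 15.9 TPM (mean ± SD, n = 4, also below), followed by Ccn2 with 54.8 ± 2.45, Ccn3 with 19.4 ± 0.914 and Ccn5 with 9.50 ± 1.52 TPM. Ccn4 (0.668 ± 0.0562 TPM) and Ccn6 (0.115 ± 0.0532 TPM) were close to the lower end of what the tables list. No neighbours in this order overlapped between libraries. On day 7 the order in control cells was different. Ccn2 (273 ± 19.8 TPM) and Ccn1 (260.2 ± 13.7 TPM) stood at the top with overlapping ranges, and Ccn5 (53.6 ± 3.22 TPM) was above Ccn3 (5.96 ± 0.694), Ccn4 (1.62 ± 0.254) and Ccn6 (0.558 ± 0.142 TPM). With shRNA-RUS, the order of day 5 was the same as in the controls, with Ccn1 at 250.0 ± 28.2, Ccn2 at 36.8 ± 2.96, Ccn3 at 10.3 ± 0.589, Ccn5 at 2.87 ± 0.569, Ccn4 at 0.325 ± 0.0640 and Ccn6 at 0.0675 ± 0.0386 TPM. On day 7 with shRNA-RUS, Ccn2 (245 ± 25.9 TPM) was above Ccn1 (179 ± 9.07 TPM) in every library, and Ccn5 was at 4.41 ± 0.427 TPM, only a little above Ccn3 at 2.45 ± 0.387 TPM, without overlap.

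**Figure D1:**
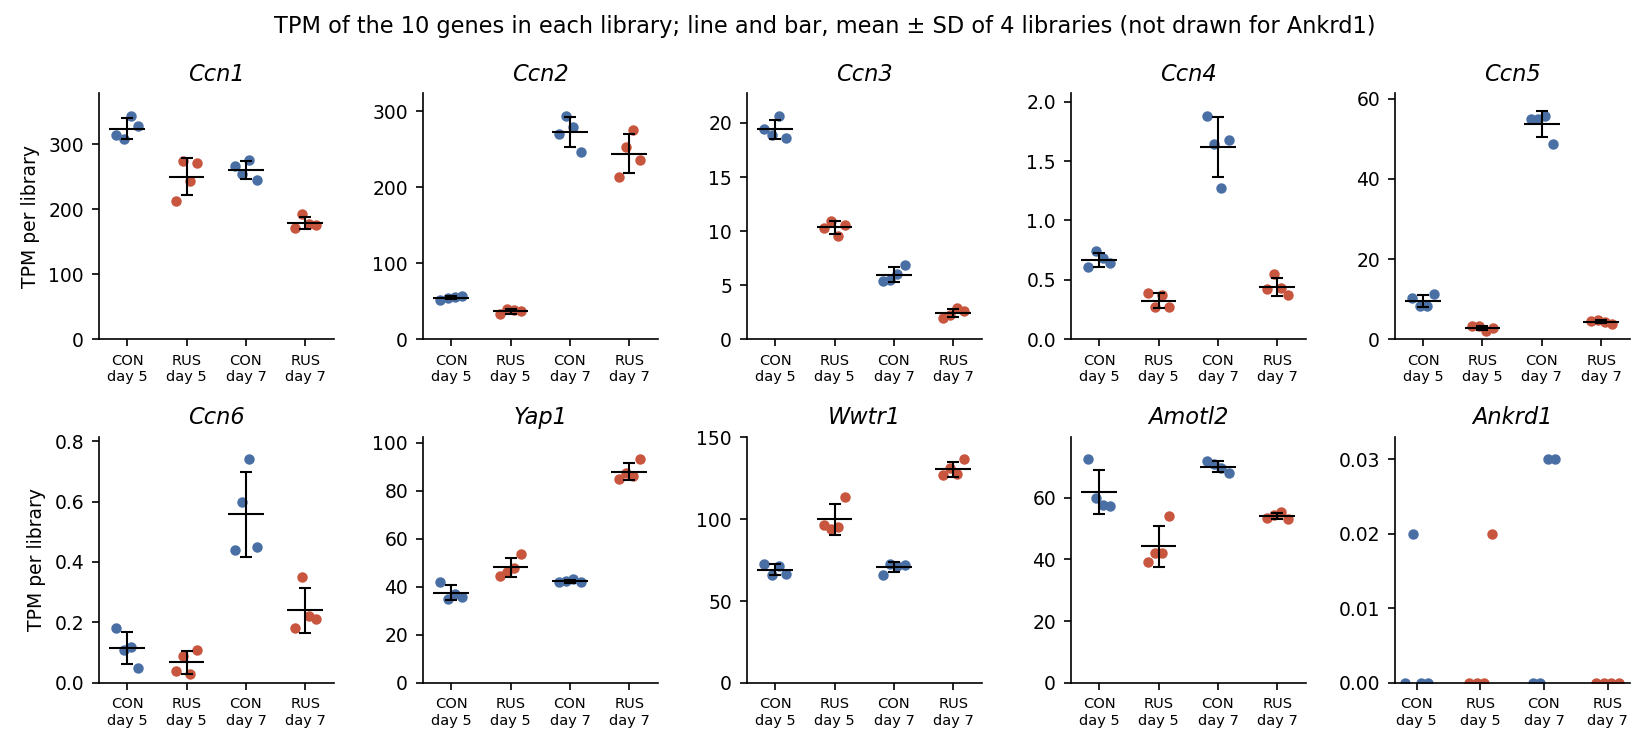
TPM of the 10 genes (vertical axes, TPM from 0, a scale for each gene) in the 16 libraries, by shRNA and day (horizontal axis); points are libraries, and line and bar are the mean ± SD of 4 libraries. The 4 libraries of Ccn5 with shRNA-CON on day 7 lie between 48.81 and 55.73 TPM and those with shRNA-RUS between 3.88 and 4.91 TPM, and Yap1 and Wwtr1 are higher with shRNA-RUS on both days.

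Ccn5 lies on chromosome 2 (chr2:163820752-163833146, plus strand, GRCm38). Its longest coding sequence in GENCODE vM21 has 251 codons in 4 coding exons, against 348 to 379 codons in 5 coding exons in the other CCN genes. Ccn5 was the member that chose the group. On day 7 it had 54.84, 55.05, 55.73 and 48.81 TPM with shRNA-CON and 4.51, 4.91, 4.33 and 3.88 TPM with shRNA-RUS. The lowest control library was far above the highest knockdown library. This is a log2 fold change of -3.58 (SE 0.078, shRNA-RUS over shRNA-CON, on the log2(scaled TPM + 0.1) scale), and 8 of 24606 genes had a lower log2 fold change. It is given as a description and without a test, because it was used for the choice. On day 5, which the choice did not use, Ccn5 had 10.17, 8.20, 8.30 and 11.34 TPM with shRNA-CON and 3.34, 3.22, 2.08 and 2.82 TPM with shRNA-RUS. The groups did not overlap, and Ccn5 fell by 1.55 on the log2 scale (SE 0.17, limma adjusted p = 0.000168), or 2.93-fold. Leaving out replicate 4 of shRNA-RUS gave -1.52 for Ccn5 (limma adjusted p = 0.000409).

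Ccn1 and Ccn2, the best known YAP/TAZ targets of the family, lie on chromosome 3 (chr3:145646971-145649985, minus strand) and chromosome 10 (chr10:24595442-24598683, plus strand). On day 5, Ccn1 had 314.70, 307.49, 343.54 and 328.56 TPM with shRNA-CON and 213.18, 273.61, 242.72 and 270.67 TPM with shRNA-RUS. The groups did not overlap in TPM, but the log2 fold change after scaling was only -0.22 (SE 0.079) and did not pass the test (limma adjusted p = 0.0616; log2 fold change -0.23 and adjusted p = 0.0691 without replicate 4 of shRNA-RUS). With TPM as deposited it was -0.38 (limma adjusted p = 0.00631) and with quantile normalization -0.40 (limma adjusted p = 0.00497), and it also passed with a filter at 1 TPM (limma adjusted p = 0.0465) and without replicate 2 of shRNA-RUS (limma adjusted p = 0.0281). On day 7, Ccn1 had 267.14, 254.38, 275.01 and 244.13 TPM with shRNA-CON and 171.06, 191.97, 177.94 and 175.23 TPM with shRNA-RUS, again without overlap (log2 fold change -0.54, SE 0.048).

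Ccn2 had 51.54, 54.81, 55.60 and 57.40 TPM with shRNA-CON and 32.64, 39.39, 38.32 and 37.03 TPM with shRNA-RUS on day 5. It fell by 0.42 on the log2 scale (SE 0.079, limma adjusted p = 0.00339), and by 0.39 without replicate 4 of shRNA-RUS (limma adjusted p = 0.00657). On day 7 its level was several times higher in both groups, and the groups overlapped: 270.03, 294.21, 279.95 and 247.08 TPM with shRNA-CON and 214.24, 252.57, 275.57 and 235.90 TPM with shRNA-RUS (log2 fold change -0.16, SE 0.077, and -0.10 without replicate 1 of shRNA-RUS). The antisense gene Gm15270 overlaps Ccn2 on the minus strand, at 1.14 to 2.36 TPM with shRNA-CON on day 5 and 5.11 to 8.83 TPM on day 7, a small fraction of the Ccn2 level.

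Ccn3 (also Nov; chr15:54745910-54753762, plus strand) is often described as a growth-restraining member of the family. It had 19.47, 18.89, 20.66 and 18.59 TPM with shRNA-CON and 10.27, 10.94, 9.56 and 10.60 TPM with shRNA-RUS on day 5, and fell by 0.74 on the log2 scale (SE 0.069, limma adjusted p = 8.19e-05). The value was -0.73 when replicate 4 of shRNA-RUS was left out (limma adjusted p = 0.000152). On day 7 it had 5.40, 5.49, 6.05 and 6.91 TPM with shRNA-CON and 2.01, 2.25, 2.87 and 2.65 TPM with shRNA-RUS (log2 fold change -1.26, SE 0.13). On each day, every knockdown library was below every control library.

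Ccn4 (also Wisp1; chr15:66891369-66923201, plus strand), known as a target of Wnt signalling, was present at low levels. On day 5 it had 0.61, 0.74, 0.68 and 0.64 TPM with shRNA-CON and 0.39, 0.27, 0.37 and 0.27 TPM with shRNA-RUS, and fell by 0.73 on the log2 scale (SE 0.20, limma adjusted p = 0.0193; adjusted p = 0.0363 without replicate 4 of shRNA-RUS). With 1 TPM added in place of 0.1, Ccn4 was at -0.28 on the log2 scale (limma adjusted p = 0.0141). The call was lost with quantile normalization (limma adjusted p = 0.0650) and with the replicate number as a block (0.0715). It was also lost without replicate 2 of shRNA-CON (0.0569), replicate 3 of shRNA-CON (0.0528) or replicate 2 of shRNA-RUS (0.0514). On day 7, Ccn4 had 1.88, 1.64, 1.27 and 1.68 TPM with shRNA-CON and 0.42, 0.55, 0.43 and 0.37 TPM with shRNA-RUS (log2 fold change -1.66, SE 0.18). The difference was thus wider on the second of the 2 days; whether the knockdown effect differed between the days was not tested for this or any other member.

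Ccn6 (also Wisp3; chr10:39150970-39174376, minus strand) had 0.03 to 0.18 TPM in the 8 libraries of day 5, under the limit of a mean of 0.1 TPM, and was not tested on that day. On day 7 it had 0.44, 0.60, 0.74 and 0.45 TPM with shRNA-CON and 0.18, 0.35, 0.22 and 0.21 TPM with shRNA-RUS (log2 fold change -0.95, SE 0.25). With 1 TPM added in place of 0.1, this difference was -0.33, that of Ccn4 was -0.86, that of Ccn3 -1.02 and that of Ccn5 -3.34. The authors' mean of normalized counts for Ccn6 over the 8 libraries of a day was 1.23 on day 5 and 1.09 on day 7, so it did not follow the TPM. Tube1, which encodes epsilon-tubulin, overlaps Ccn6 on the other strand, with 2.81 to 4.21 TPM (shRNA-CON) and 1.80 to 2.22 TPM (shRNA-RUS) on day 5, and 6.95 to 8.82 TPM and 4.17 to 5.17 TPM on day 7. The 4 group means of Tube1 stood in the same order as those of Ccn6, the sources used here do not say whether the counting used the strand, and reads of the pair cannot be told apart; the level of Ccn6 is uncertain.

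Of the 8 members that reached a mean of 0.1 TPM on day 5, 5 fell with knockdown (Ccn2, Ccn3, Ccn4, Ccn5 and Amotl2), 2 rose (Yap1 and Wwtr1) and Ccn1 did not pass the test; Ccn6 and Ankrd1 were under the limit. Among all 22581 genes tested on day 5, 17.9% were called lower and 14.8% higher. With TPM as deposited, the split over all genes moved from 3349 higher and 4034 lower to 1768 higher and 6037 lower, and the median over all genes from -0.061 to -0.21. The median over the 8 members was -0.37, and the groups of all 8 did not overlap in TPM, as was so for 33.5% of all genes tested. On day 7, leaving out Ccn5, 8 members were over the limit, of which 5 were lower and 2 higher at the same threshold, while Ccn2 did not pass it; among all 24606 genes, 25.8% were lower and 23.4% higher, and nothing is read from this count since the choice was made on that contrast. The groups of 7 of these 8 members did not overlap, beside 46.5% of all genes, and the median over the 8 was -0.46, against -0.029 over all genes.

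**Figure D2:**
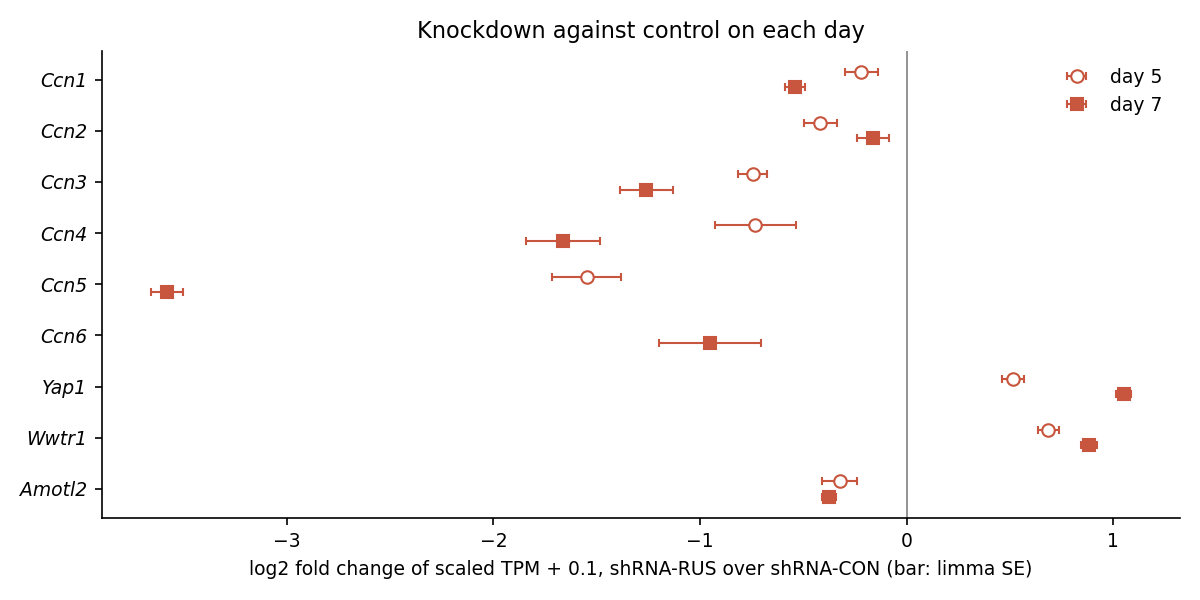
Log2 fold change of shRNA-RUS over shRNA-CON on the log2(scaled TPM + 0.1) scale (horizontal axis, with limma's SE as bars) for each member tested (vertical axis) on day 5 (open circles) and day 7 (filled squares). All CCN genes lie left of 0 on each day they were tested, with Ccn5 at -1.55 on day 5 and -3.58 on day 7, while Yap1 (0.52 and 1.05) and Wwtr1 (0.69 and 0.88) lie right of 0.

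The coactivators went the other way. Yap1 (chr9:7931999-8004638, minus strand) had 42.15, 35.06, 37.06 and 35.76 TPM with shRNA-CON and 44.43, 46.30, 47.93 and 53.61 TPM with shRNA-RUS on day 5, and rose by 0.52 on the log2 scale (SE 0.055, limma adjusted p = 0.000154). By day 7 the levels were 42.04, 42.19, 43.07 and 41.81 TPM with shRNA-CON and 84.80, 87.35, 86.21 and 93.00 TPM with shRNA-RUS, 2.07-fold higher (log2 fold change 1.05, SE 0.035). The control libraries of day 7 hardly differed from each other, and the knockdown libraries were all far above them.

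Wwtr1 (chr3:57455644-57575910, minus strand), which encodes TAZ, was more abundant than Yap1 in all 16 libraries. On day 5 it had 72.44, 66.17, 71.29 and 66.50 TPM with shRNA-CON and 96.47, 94.32, 95.01 and 113.86 TPM with shRNA-RUS, and rose by 0.69 on the log2 scale (SE 0.051, limma adjusted p = 3.16e-05). By day 7 the levels were 65.99, 72.76, 71.59 and 72.18 TPM with shRNA-CON and 127.06, 131.05, 127.46 and 136.63 TPM with shRNA-RUS (log2 fold change 0.88, SE 0.039). Of the members tested, only Yap1 and Wwtr1 were higher with shRNA-RUS on both days, without overlap on either day. Replicate 4 of shRNA-RUS had the highest TPM of both on day 5, and when it was left out the values of day 5 were 0.49 for Yap1 (limma adjusted p = 0.000227) and 0.65 for Wwtr1 (limma adjusted p = 3.15e-05). The antisense gene Gm16016 overlaps Wwtr1 and did not exceed 0.70 TPM in any library.

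Amotl2 (chr9:102717091-102733418, plus strand) is both a YAP/TAZ target and an inhibitor of YAP. It had 72.50, 59.86, 57.65 and 57.32 TPM with shRNA-CON and 39.11, 42.20, 42.03 and 54.12 TPM with shRNA-RUS on day 5, and fell by 0.32 on the log2 scale (SE 0.085, limma adjusted p = 0.0170; log2 fold change -0.39 and adjusted p = 0.00269 without replicate 4 of shRNA-RUS). On day 7 the groups were tighter, with 71.98, 71.07, 69.59 and 67.93 TPM for shRNA-CON and 53.59, 54.43, 55.41 and 53.23 TPM for shRNA-RUS (log2 fold change -0.37, SE 0.034). Ankrd1 (chr19:36111965-36119844, minus strand), a cardiac and muscle ankyrin repeat protein widely used as a YAP target, was listed at 0 in 12 of the 16 libraries. It was at 0.02 TPM in replicate 2 of shRNA-CON and replicate 4 of shRNA-RUS on day 5, and at 0.03 TPM in replicates 3 and 4 of shRNA-CON on day 7. The authors' mean of normalized counts for Ankrd1 was 0.12 on day 5 and 0 on day 7. Ankrd1 was tested in no comparison.

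Ratios within a library do not depend on how libraries are scaled to each other. The ratio of Wwtr1 to Yap1 was 1.72 to 1.92 with shRNA-CON and 1.98 to 2.17 with shRNA-RUS on day 5, and 1.57 to 1.73 against 1.47 to 1.50 on day 7. The ratio was thus higher with knockdown on day 5 and lower on day 7, without overlap on either day. The ratio of Ccn5 to Ccn2 was 0.149 to 0.198 with shRNA-CON on day 5 and 0.187 to 0.203 on day 7, so that both genes kept a similar proportion in control cells while each became more abundant. With shRNA-RUS it was 0.0543 to 0.102 on day 5 and 0.0157 to 0.0211 on day 7. The ratio of Ccn2 to Ccn1 was 0.162 to 0.178 against 0.137 to 0.158 on day 5, and 1.01 to 1.16 against 1.25 to 1.55 on day 7. These ratios are given as descriptions, without a test. The 6 CCN genes together summed to a mean of 408 TPM with shRNA-CON and 300.5 TPM with shRNA-RUS on day 5, and to 595 and 431 TPM on day 7.

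**Figure D3:**
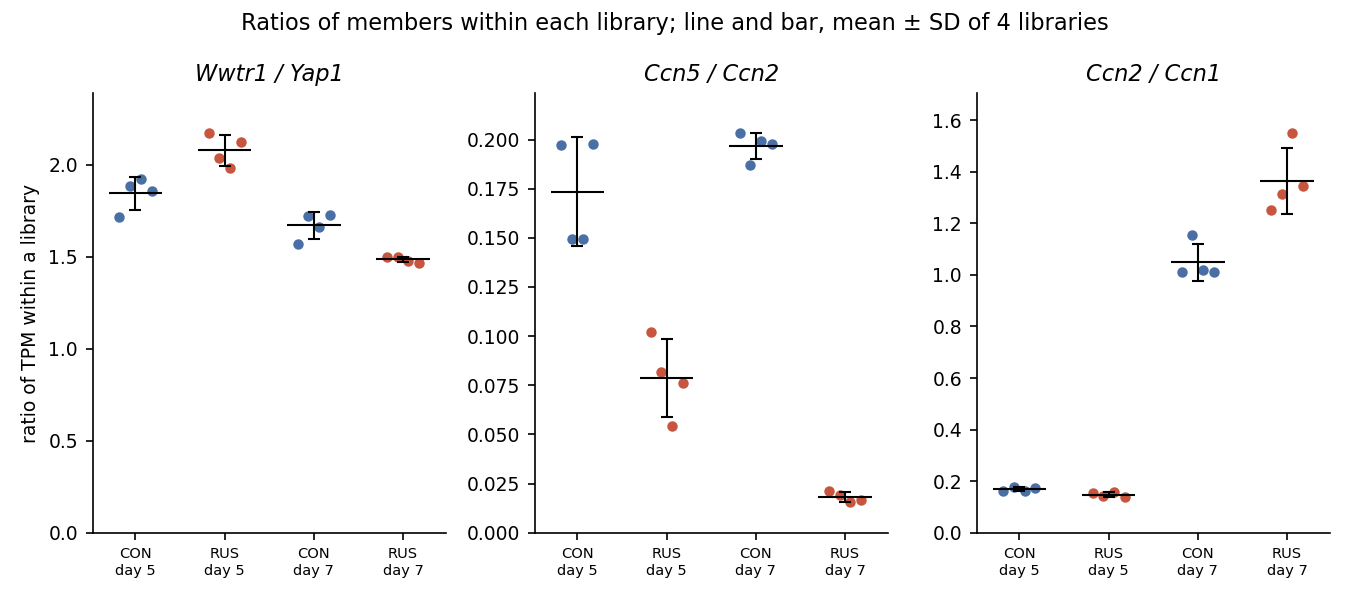
Ratio of TPM within each library (vertical axes, from 0) of Wwtr1 to Yap1, Ccn5 to Ccn2 and Ccn2 to Ccn1, by shRNA and day (horizontal axis); points are libraries, and line and bar are the mean ± SD of 4 libraries. Ccn5 to Ccn2 stays between 0.149 and 0.203 in the 8 control libraries and is between 0.0157 and 0.0211 with shRNA-RUS on day 7.

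The change from day 5 to day 7 spans the start of differentiation and was tested in 1 fit over the 16 libraries, separately in control and knockdown cells. These comparisons use the same libraries as the knockdown comparisons above. In control cells, Ccn2 rose by 2.16 on the log2 scale (SE 0.078, limma adjusted p = 7.31e-12), or 4.47-fold, and with shRNA-RUS by 2.40 (SE 0.078, limma adjusted p = 2.21e-12). Ccn3 fell by 1.84 on the log2 scale in control cells (SE 0.10, limma adjusted p = 8.06e-10) and by 2.37 with shRNA-RUS (SE 0.10, limma adjusted p = 4.38e-11). Ccn1 fell by 0.47 (SE 0.065, limma adjusted p = 2.31e-05) and 0.80 (SE 0.065, limma adjusted p = 3.70e-08). With quantile normalization these Ccn1 values were -0.24 (limma adjusted p = 0.00748) and -0.37 (limma adjusted p = 0.000214), and with TPM as deposited the second was -0.48. Thus the first 3 members of the family changed in the same direction between the days in both groups, Ccn2 upwards and Ccn1 and Ccn3 downwards.

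After scaling, Ccn4 passed the test only in control cells and Yap1 only with shRNA-RUS. The values of Ccn1 and Ccn3 above also differed in size between the shRNAs. Ccn4 rose by 1.01 on the log2 scale in control cells (SE 0.17, limma adjusted p = 0.000159), and the value with shRNA-RUS was 0.098 (SE 0.17, limma adjusted p = 0.650); with 1 TPM added, the control value was 0.56. Ccn5, given without a test, had a log2 fold change of 2.34 (SE 0.14) between the days in control cells, from 8.20 to 11.34 TPM on day 5 to 48.81 to 55.73 TPM on day 7, and of 0.31 (SE 0.14) with shRNA-RUS, from 2.08 to 3.34 TPM to 3.88 to 4.91 TPM. The second value was 0.62 with TPM as deposited, 0.053 with quantile normalization and 0.17 without replicate 3 of shRNA-RUS on day 5. Yap1 rose with shRNA-RUS by 0.55 on the log2 scale (SE 0.043, limma adjusted p = 2.45e-08; 0.87 with TPM as deposited), and its value in control cells was 0.025 (SE 0.043, limma adjusted p = 0.672). The control value passed the test with TPM as deposited (log2 fold change 0.18, limma adjusted p = 0.0286). Whether the day change differed between the shRNAs was not tested for any member.

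The day change of Wwtr1 depended on the scaling. In control cells the ranges of both days overlapped in TPM, and the log2 fold change after scaling was -0.12 (SE 0.043, limma adjusted p = 0.0319) and 0.032 with TPM as deposited (limma adjusted p = 0.688). The call was also lost with quantile normalization (limma adjusted p = 0.532), and without replicate 1 (0.0524) or 3 (0.0871) of shRNA-CON on day 5 or replicate 1 (0.110) or 3 (0.0555) on day 7. With shRNA-RUS, the log2 fold change of Wwtr1 was 0.065 (SE 0.043, limma adjusted p = 0.209), against 0.39 with TPM as deposited (limma adjusted p = 2.46e-05), 0.33 with quantile normalization (limma adjusted p = 4.53e-05) and 0.10 without replicate 4 of shRNA-RUS on day 5 (limma adjusted p = 0.0389). Over all genes, the median day change was 0.067 in control and 0.13 in knockdown cells after scaling, and 0.20 and 0.41 with TPM as deposited. Amotl2 passed the test in neither group after scaling (log2 fold changes 0.037 and -0.025, limma adjusted p = 0.684 and 0.766); with shRNA-RUS it was 0.30 with TPM as deposited (limma adjusted p = 0.00696). Ccn6, which entered this fit through its day 7 libraries, is given without a test: its log2 fold changes were 1.51 in control and 0.86 in knockdown cells, and 0.44 and 0.18 with 1 TPM added.

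Leaving out Ccn5 and Ccn6, 2 of 7 members tested rose in control cells between the days (Ccn2 and Ccn4) and 3 fell (Ccn1, Ccn3 and Wwtr1), beside 26.9% of all 23789 genes higher and 21.6% lower. With shRNA-RUS 2 rose (Ccn2 and Yap1) and 2 fell (Ccn1 and Ccn3), beside 35.0% of all genes higher and 25.8% lower. With TPM as deposited, the split over all genes with shRNA-RUS moved from 8317 higher and 6135 lower to 11801 and 3545, and in control cells from 6394 and 5133 to 8573 and 3434.

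**Figure D4:**
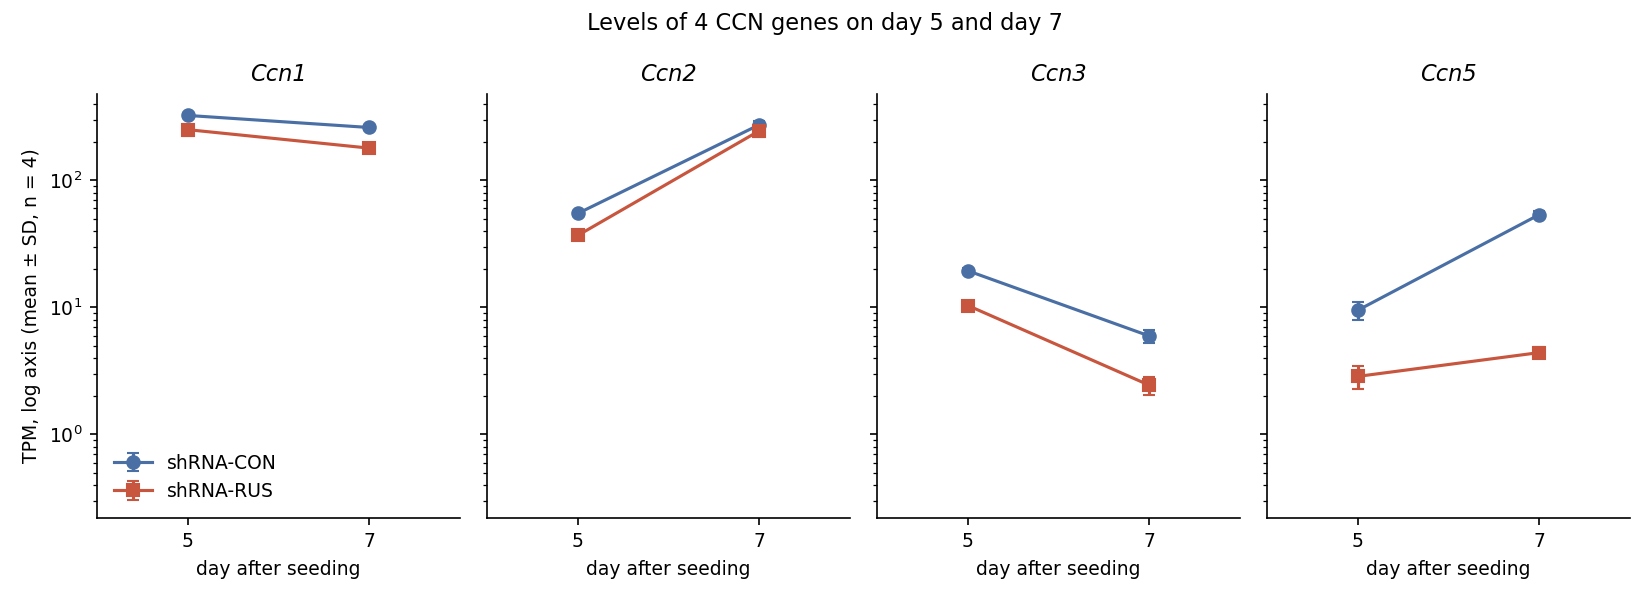
TPM as deposited (vertical axis, log scale, mean ± SD of 4 libraries) of Ccn1, Ccn2, Ccn3 and Ccn5 on day 5 and day 7 after seeding (horizontal axis) with shRNA-CON (circles) and shRNA-RUS (squares). Ccn2 is higher and Ccn1 and Ccn3 are lower on day 7 with both shRNAs, while Ccn5 goes from 9.50 to 53.6 TPM with shRNA-CON and from 2.87 to 4.41 TPM with shRNA-RUS.

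Other genes of the pathway were described with 4 lists, which hold 61 genes (Lats2 and Ptpn14 are in a pair of lists). Of the 27 genes of the Hippo kinase cascade and its upstream regulators, 4 rose and 5 fell on day 5, shares close to the 14.8% and 17.9% of all genes tested; their median log2 fold change was -0.15, against -0.061 over all genes. Stk4, which encodes the Hippo kinase MST1, rose by 0.63 on the log2 scale (SE 0.081, limma adjusted p = 0.000417; 18.4 ± 2.26 against 13.1 ± 0.787 TPM), and Frmd6, a relative of an upstream activator of the cascade in flies, by 0.60 (SE 0.064, limma adjusted p = 0.000151). Strn3, a subunit of the STRIPAK phosphatase complex that acts on the Hippo kinases, fell by 0.66 (SE 0.076, limma adjusted p = 0.000237), and Wwc1, the scaffold KIBRA, fell by 0.53 (SE 0.053, limma adjusted p = 0.000117; 106 ± 7.18 against 172 ± 10.6 TPM). The other called genes, named after their values were seen, were Taok2 (0.32) and Sav1 (0.26) among those that rose and Wwc2 (-0.47), Lats2 (-0.36) and Nf2 (-0.18) among those that fell. Without replicate 4 of shRNA-RUS the number that fell was 12, a run for which no share of all genes is given. With TPM as deposited 2 rose and 11 fell, while over all 22581 genes tested 1768 rose and 6037 fell. On day 7, 15 of the 27 were higher and 7 lower, with a median of 0.16, while 23.4% of all genes were higher and 25.8% lower, with a median of -0.029; Stk4 was at 0.73, Frmd6 at 0.59, Strn3 at -0.37 and Wwc1 at -0.60.

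Of the 8 TEAD factors and cofactors, 6 were over the limit on day 5, of which 3 rose and 0 fell by limma, with 1 below 0 at an unadjusted p under 0.05, and their median was 0.29 (for all genes tested, -0.061, with 14.8% of them higher and 17.9% lower by limma). Without replicate 4 of shRNA-RUS, 1 of them was called lower, and no share of all genes is given for that run. The 3 that rose were Tead4 (log2 fold change 0.88, SE 0.18, limma adjusted p = 0.00511, and 0.56 with 1 TPM added), Tead3 (0.63, SE 0.070, limma adjusted p = 0.000203) and, named after its value was seen, Vgll4 (0.42, SE 0.046), a cofactor that competes with YAP for TEAD. Tead4 was at 2.00 ± 0.496 TPM with shRNA-RUS and 1.14 ± 0.167 TPM with shRNA-CON, and Tead3 at 27.4 ± 2.20 and 19.7 ± 0.754 TPM. On day 7, 5 of 7 genes over the limit were higher (Tead1 to Tead4 and Vgll4) and Vgll2 was lower, beside 23.4% and 25.8% of all genes, with Tead3 at 1.15 and Tead4 at 1.04.

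The YAP/TAZ target genes other than the members were split. Of 17 tested on day 5, 7 rose and 7 fell, against 14.8% and 17.9% of all genes, with a median log2 fold change of -0.17, against -0.061 over all genes. Igfbp3, a secreted binding protein of insulin-like growth factors, rose by 1.07 (SE 0.073, limma adjusted p = 2.08e-05; 935 ± 44.3 against 499 ± 32.9 TPM), and Gadd45a, a stress-response gene, by 0.87 (SE 0.13, limma adjusted p = 0.00110). Nuak2, a kinase related to AMPK, fell by 0.89 (SE 0.081, limma adjusted p = 7.37e-05; 15.9 ± 2.15 against 32.9 ± 2.32 TPM), and Crim1, a transmembrane protein that binds BMPs, also by 0.89 (SE 0.17, limma adjusted p = 0.00423). On day 7, 10 of 17 were higher and 5 lower (of all genes, 23.4% and 25.8%), with Gadd45a at 1.48, Igfbp3 at 0.92, Nuak2 at -0.94 and Crim1 at -0.87.

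Of the 10 CCN-binding integrins and LRP receptors, Itgb1, the common beta 1 subunit, rose on day 5 (log2 fold change 0.32, SE 0.061, limma adjusted p = 0.00375; 297 ± 27.2 against 265 ± 12.1 TPM), and Itgb2, the beta 2 subunit of leukocytes, fell by 0.40 (SE 0.12, limma adjusted p = 0.0304). The call of Itgb1 was lost with TPM as deposited (log2 fold change 0.16, limma adjusted p = 0.111) and with quantile normalization (0.12, limma adjusted p = 0.289). That of Itgb2 was lost with quantile normalization (log2 fold change -0.24, limma adjusted p = 0.158), without a filter (0.0602) and with the replicate number as a block (0.111). It was also lost without 1 library in 6 of 8 cases. These were replicates 1 (limma adjusted p = 0.0783), 2 (0.0546) and 4 (0.0804) of shRNA-CON and replicates 1 (0.0691), 2 (0.0533) and 4 (0.0546) of shRNA-RUS. The other 10 pathway genes named for the size of their day 5 change kept direction and call under each alternative run. The median over the 10 was -0.14. On day 7, 5 were higher and 2 lower, against 23.4% and 25.8% of all genes. The 2 that were lower were Itgb2 (-0.91) and its partner Itgam (-0.99), which together form a receptor of microglia; the 6 markers of microglia summed to 208 to 218 TPM with shRNA-CON and 88.4 to 107 TPM with shRNA-RUS on day 7, and their part in these integrin values was not tested.

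**Figure D5:**
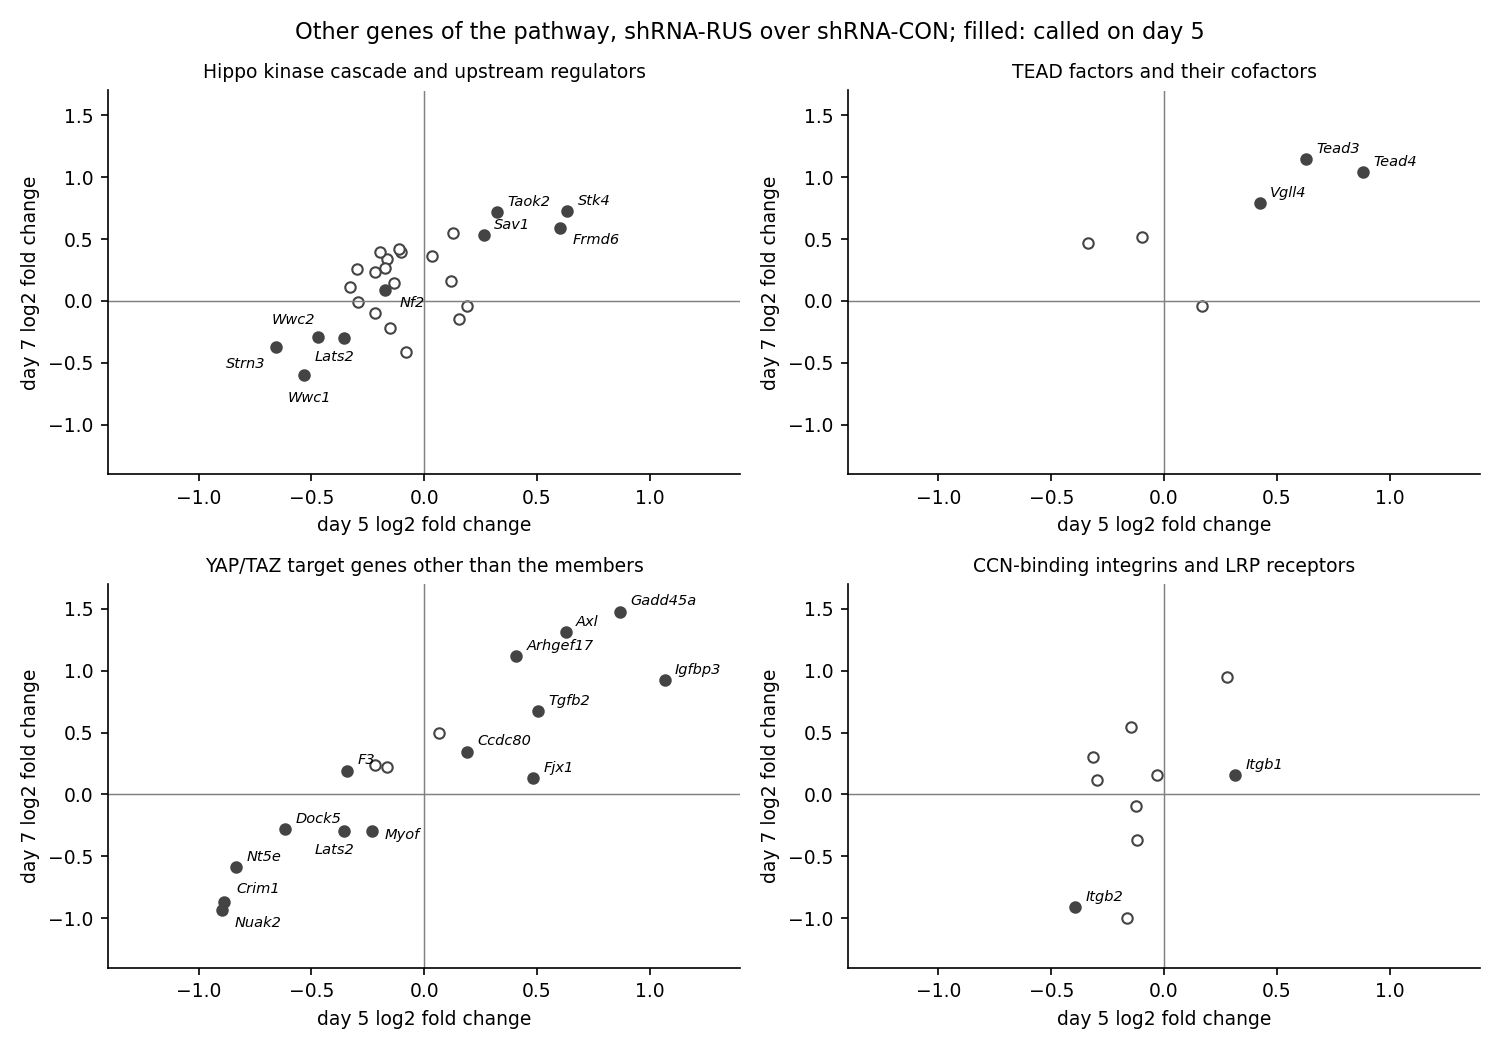
Log2 fold change of shRNA-RUS over shRNA-CON on day 5 (horizontal axes) and day 7 (vertical axes) for the genes of the 4 pathway lists tested on both days; filled and named points were called on day 5. Stk4, Tead3, Tead4 and Igfbp3 lie above 0 and Nuak2, Crim1, Wwc1 and Strn3 below 0 on both days.

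CCN genes are also expressed by fibroblasts, mural cells and endothelium, and in these bulk samples fewer cells of a type and less RNA per cell cannot be told apart. The 12 markers of meningeal fibroblasts and mural cells summed to 372 to 386 TPM with shRNA-CON and 276 to 292 TPM with shRNA-RUS on day 5, and to 279 to 301 TPM and 285 to 367 TPM on day 7; most of this was Acta2, with a mean of 318 TPM in control cells of day 5. On day 5, 4 of the 11 of these markers that were tested fell and 2 rose, beside 17.9% and 14.8% of all genes, and none of the 12 was at 0 in all libraries of a group. The 6 endothelial markers summed to 5.96 to 6.79 TPM against 3.08 to 4.51 TPM on day 5 and to 7.34 to 7.86 TPM against 3.57 to 4.53 TPM on day 7, with 1 marker at a mean of at least 1 TPM in each group, Cldn5 at 0 in all control libraries and Cdh5 at 0 in all knockdown libraries of day 7. By limma, 1 of 4 tested fell on day 5 and 0 rose, also at an unadjusted p under 0.05. The 6 microglia markers summed to 101 to 106 TPM against 71.4 to 79.9 TPM on day 5. On day 7 they summed to 208 to 218 TPM against 88.4 to 107 TPM. They were thus lower with knockdown on both days and further apart on day 7. On day 5, by limma 3 of them fell and 0 rose (at an unadjusted p under 0.05, 4 and 0). The 6 astrocyte markers summed to 4148 to 4590 TPM against 5138 to 5516 TPM on day 5. On day 7 they summed to 2758 to 2822 TPM against 3507 to 3691 TPM. The sum was thus higher with knockdown on both days. Most of this sum was Gfap (1797 ± 78.8 against 2434 ± 71.3 TPM on day 5) and Aldoc (1291 ± 63.0 against 1719 ± 120.2 TPM). These were the 2 that rose on day 5; by limma 0 fell (the same at an unadjusted p under 0.05), and the other 4 had lower mean TPM with knockdown. The 6 neuron markers summed to 313 to 425 TPM against 246 to 279 TPM on day 5 and to 692 to 774 TPM against 662 to 781 TPM on day 7, and 2 of them fell and 0 rose on day 5 by limma (the same at an unadjusted p under 0.05). Of the 8 NSC and radial glia markers, 3 rose and 2 fell on day 5. On day 7, at the same threshold, which 25.8% of all genes passed as lower and 23.4% as higher, all 6 microglia markers were lower (median log2 fold change -1.02), while 5 fibroblast and mural markers were higher and 2 lower, and 3 astrocyte and 3 neuron markers were higher and 1 of each lower (of the astrocyte markers S100b, at 12.1 against 17.6 TPM). Without replicate 4 of shRNA-RUS, 1 fibroblast or mural marker rose on day 5 in place of 2 and 1 NSC marker fell in place of 2, and the counts of the other marker lists were the same. The part of these cell types in the values of the members was not tested.

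The genes whose pattern over the 16 libraries was most like that of Ccn5 were ranked among 15899 genes that reached a mean of 1 TPM, by the root mean square difference of log2 values centred on their mean. The closest was Matn3, a cartilage matrix protein, with a difference of 0.46, and group means of 1.45 (shRNA-CON) and 0.438 TPM (shRNA-RUS) on day 5 and 4.98 and 0.843 TPM on day 7. It was followed by Npvf (0.55), which encodes a neuropeptide precursor, Plau (0.59), the urokinase plasminogen activator, C1ql3 (0.61), a secreted synaptic protein of the C1q family, and Pgm5 (0.62). Plau had 8.29 and 3.16 TPM on day 5 and 21.4 and 3.85 TPM on day 7. Of the CCN genes, Ccn1, Ccn2 and Ccn3 were far down this ranking, with differences of 1.54, 1.37 and 1.94 and ranks of 7087, 2929 and 14770. Ccn4 and Ccn6 did not reach a mean of 1 TPM and were not ranked. This likeness is a description over libraries that share the same 4 groups.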

How the data were processed

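The 16 RNA-seq libraries of NSC fall into 4 groups (shRNA and day) by their labels. PolyA RNA was sequenced by the authors; their reads were mapped by STAR on mm10 with the transcripts of GRCm38.99, and RSEM gave the abundances. The authors deposited TPM per library in a table for each day, with the mean of normalized counts over its libraries (a signal printed here as the authors' mean) and the columns of their own DESeq2 comparison (fold changes, errors and p-values), which were not used. No read counts per library are used here, so the depth is unknown and no counting interval is given.

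Libraries were scaled by median ratios to geometric means (the library factors), from genes that reach 1 TPM in every library fitted, and log2 was taken after adding 0.1. Genes whose mean reached 0.1 TPM were tested with limma 3.58.1 in R 4.3.3 (lmFit, then eBayes with a trend, two-sided, Benjamini-Hochberg adjustment over all genes tested, threshold 0.05). The day 5 and day 7 knockdown fits held the 8 libraries of the day. The day comparisons used 1 fit of all 16 libraries over 55365 lines that carry one symbol at one place in both tables; 106 lines were left out, and 3 lines of day 5 name no gene. RUS was compared with an exact permutation test (scipy 1.17.1). On simulated data, the day 5 fit recovered 82% of changes of 1 and 65% of changes of 0.6 on the log2 scale. Its false calls were 4.55%. The day 7 fit recovered 85% and 66% with 4.43%. The day comparison in control cells recovered 91% and 83% with 7.45%, above the nominal level. Each simulation changed only 100 genes by each amount, taken from genes above about 1 TPM, with normal noise. In the data far more genes were called (on day 5, 3349 higher and 4034 lower), so these rates need not hold for the real fits.

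The 10 genes and the gene lists were chosen with earlier results of these data known. Named are all 10 members, up to 2 called genes in each direction with the largest day 5 change and a mean of 1 TPM or more in each of the 4 pathway lists (Hippo kinases and regulators, TEAD factors, other YAP/TAZ targets, CCN-binding integrins and LRP receptors), the 5 genes most like Ccn5, and Gm20754; 6 lists of cell type markers (fibroblast and mural, endothelial, microglia, NSC, astrocyte, neuron) were counted and summed. Positions came from RefSeq (GRCm38.p6), coding lengths and strands from GENCODE vM21, matched by symbol. As alternatives, 1 or 0.01 was added before the log2, the filter was set at 1 TPM or left out, TPM were used as deposited or quantile normalized, the replicate number was a block, and each library was left out in turn; running these for the named pathway genes, and leaving out replicate 4 of shRNA-RUS on day 5 for the marker lists, was chosen after seeing the data. Python 3.11.15, numpy 2.4.6, pandas 2.3.3 and matplotlib 3.10.9 were used.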

Additional observations from a re-analysis of the deposited data

Results flagged for a closer look

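In 39 groups of 4 libraries with varying values, the highest or lowest library was compared with the others. A library was picked out where its gap to the nearest one was above the critical value of Dixon for 4 libraries, which chance gives in about 1 in 20 groups. This was so in 5 groups. Ccn5 had 48.81 TPM in replicate 4 of shRNA-CON on day 7, below the other 3 control libraries. Wwtr1 had 113.86 TPM in replicate 4 of shRNA-RUS on day 5, above the others. Amotl2 had 72.5 TPM in replicate 1 of shRNA-CON on day 5, above the others. Ankrd1 was listed at 0.02 TPM in replicate 2 of shRNA-CON and in replicate 4 of shRNA-RUS on day 5, and at 0 in the other libraries of these groups. With the other libraries at 0, any value above 0 is picked out, so the rate of 1 in 20 does not hold for Ankrd1.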

How the results depend on the processing

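The depth of each library is unknown, so no limit from read counts can be set, and Ccn4, Ccn6 and Ankrd1 lie close to the lower end of the TPM listed. The number of members called on day 5 stayed within 1.5 times the value given under each alternative run. The direction of the day 5 knockdown difference was kept by all 8 members tested under each alternative run. With TPM as deposited, 2 genes of the Hippo kinase list rose and 11 fell, 1 TEAD gene fell, and 0 integrins or receptors rose and 3 fell. Over all genes, 1768 rose and 6037 fell in that run. With quantile normalization, 0 integrins or receptors rose and 0 fell, without a filter 0 fell, and with a filter at 1 TPM 1 TEAD gene fell. With 1 library left out, the Hippo kinase genes that fell numbered 4 to 12 (12 without replicate 4 of shRNA-RUS). The TEAD genes that fell numbered 0 to 1 (1 without that library), and the integrins and receptors 0 to 3 (3 without it). The integrins and receptors that rose numbered 1 to 2. No share of all genes is given for the runs with 1 library left out. Between the days, Wwtr1 in control cells turned to 0.032 with TPM as deposited. With shRNA-RUS, Ccn4 turned to -0.25 with quantile normalization, and Amotl2 to 0.30 with TPM as deposited, 0.053 with quantile normalization, and with 1 library left out it ranged from -0.069 to 0.045, the latter without replicate 4 of shRNA-RUS on day 5. The cause was not tested.

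Whether the replicate numbers pair the libraries is not settled. Deviations of libraries with the same number had correlations over genes of -0.25 to -0.016 on day 5. On day 7 these were 0.016 to 0.10. Libraries with different numbers had -0.21 to 0.26 on day 5 and -0.099 to 0.092 on day 7. All of these correlations are weak and cannot exclude a pairing. With the replicate block, 5 members were called on day 5 in place of 7, as Ccn4 (limma adjusted p = 0.0715) and Amotl2 (0.0651) did not pass, 2 Hippo kinase genes rose, 0 integrins or receptors fell, and 2231 of all genes rose on day 5 in place of 3349.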
